A study of Mus musculus with 4 samples.

Results

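The stathmin family genes are the 4 mouse genes *Stmn1*, *Stmn2*, *Stmn3* and *Stmn4*. They were taken by name from the 56748 gene IDs of the count files, of which 16728 had a read in at least 1 library. The family was chosen by the read counts of its members in these knockdown and scrambled libraries, so those counts are described here without a test. The cells were C2C12, an established mouse myoblast line, kept in growth medium and labelled WT in genotype. The scrambled group carried plasmids with a scrambled shRNA. The knockdown group carried a mix of 3 shRNAs against *Hnrnpl*, the gene of the RNA binding protein hnRNP L. Both groups carried an eGFP reporter and were selected with puromycin. Each group held 2 libraries, which were separate passages of 1 selected stable line, and each of 2 batches held 1 library of each group. The effect of the shRNA and a difference between the 2 stable lines therefore cannot be told apart.

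Stathmins bind dimers of alpha- and beta-tubulin, which keeps the dimers from joining microtubules and promotes the shrinking of microtubules. Phosphorylation releases the tubulin. *Stmn1* encodes the cytosolic member, which is abundant in proliferating cells, whereas *Stmn2* (SCG10), *Stmn3* (SCLIP) and *Stmn4* (RB3) encode members with an extra N-terminal part that is palmitoylated and attaches them to Golgi and vesicle membranes. These 3 membrane members are known mainly from neurons.

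The members share their tubulin-binding region, and their coding sequences are related over most of their length. In the canonical transcripts of GENCODE vM39 the coding part, without the stop codon, was 447 bases in *Stmn1*, 537 in *Stmn2*, 540 in *Stmn3* and 567 in *Stmn4*. Pairs were compared by global alignment, with bases opposite a gap left out. The share of identical bases was highest for *Stmn1* and *Stmn2*, at 74.5% (319 of 428 aligned bases). *Stmn2* and *Stmn3* followed at 74.3%, over a longer part (398 of 536). *Stmn1* and *Stmn3* had the lowest share, 70.2%. Over the full coding length the order of the pairs can differ. The stretch of 45 bases in which the members were most alike is shown here to place the family side by side, with capitals at the 30 bases identical in all 4 genes.
*Stmn1*: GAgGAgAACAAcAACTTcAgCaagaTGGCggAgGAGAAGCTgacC
*Stmn2*: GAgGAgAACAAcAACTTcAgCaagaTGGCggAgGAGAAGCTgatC
*Stmn3*: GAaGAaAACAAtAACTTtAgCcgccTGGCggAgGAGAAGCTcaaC
*Stmn4*: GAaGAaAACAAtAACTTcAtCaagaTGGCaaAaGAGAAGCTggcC
In this stretch *Stmn2* was matched at 44 of 45 bases by *Stmn1*, at 36 by *Stmn4* and at 35 by *Stmn3*. On GRCm39 the stretch lies at chr4:134200190-134200234 on the forward strand in *Stmn1*, at chr3:8619927-8619971 on the forward strand in *Stmn2*, at chr2:180949081-180949125 on the reverse strand in *Stmn3* and at chr14:66595370-66595414 on the forward strand in *Stmn4*. It falls within exon 4 of the first 3 genes and exon 5 of *Stmn4*.

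Gene counts summed to 1229424 to 1676911 per library, which were 56.5% to 57.8% of all reads. *Hnrnpl* itself had 358 reads in scrambled 1, 656 in scrambled 2, 242 in knockdown 1 and 258 in knockdown 2, so it was lower in both knockdown libraries. Of 12 myoblast markers, *Des*, *Myf5*, *Chrna1*, *Cdh15*, *Ncam1* and *Megf10* passed the count filter, *Itga7* had 2 to 6 reads in a library, *Myod1* had 1 read in all, and *Pax3*, *Pax7*, *Myog* and *Mymk* had none. Of 17 markers of endothelial, blood, glial and fibroblast cells, 9 had no read, and only *Pdgfrb* passed the filter. In cultures measured in bulk, fewer cells with an RNA and less of it per cell cannot be told apart.

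*Stmn1* (ENSMUSG00000028832.12) had 209 reads in scrambled 1, 298 in scrambled 2, 260 in knockdown 1 and 196 in knockdown 2. The gene lies at chr4:134195021-134201882 on the forward strand, with 5 exons in its canonical transcript. Scaled with TMM library sizes to counts per 1000000 (CPM), it stood at 154 and 177 CPM in scrambled and at 183 and 162 CPM in knockdown. Knockdown 2 lay between the scrambled values and knockdown 1 above both, so the groups overlapped. The group means were 166 ± 15.9 CPM in scrambled and 172 ± 15 CPM in knockdown (SD, n = 2), a log2 ratio of 0.06. Within batch 1 the log2 ratio was 0.24 and within batch 2 it was -0.13, so the batches did not share a direction. *Stmn1* was among the more abundant RNAs of these cells, with more reads than 90.9% to 93% of the genes that had reads in the same library.

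*Stmn2* (ENSMUSG00000027500.11) had 257 reads in scrambled 1, 217 in scrambled 2 and none in either knockdown library. It lies at chr3:8574151-8626667 on the forward strand, a gene of 52517 bases with 5 exons. In scrambled it stood at 190 CPM (95% Poisson interval 167 to 215) and 129 CPM (112 to 147). These intervals cover counting error only, and they did not overlap between the 2 scrambled libraries. In scrambled 1 *Stmn2* had more reads than 92.7% of the genes with reads, and in scrambled 2 more than 89.5%. A count of 0 allows up to 2.11 CPM in knockdown 1 and 2.47 CPM in knockdown 2, taken at 3 counts per library. With 3 counts set on the summed reads of the knockdown group, *Stmn2* was at least 137-fold lower in knockdown. This bound was 63-fold without knockdown 1 and 73.9-fold without knockdown 2, since fewer reads then stand behind the 0, and within batches 1 and 2 it was 90-fold and 52.1-fold.

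*Stmn4* (ENSMUSG00000022044.15) had 13 reads in scrambled 1, 19 in scrambled 2 and, like *Stmn2*, none in either knockdown library. It lies at chr14:66581745-66599131 on the forward strand, with 6 exons. Its scrambled levels of 9.6 CPM (5.11 to 16.4) and 11.3 CPM (6.79 to 17.6) agree within counting error. With 3 counts on the summed knockdown reads *Stmn4* was at least 9.25-fold lower, and within the batches at least 4.55-fold and 4.56-fold. It had been a low RNA in scrambled too, with more reads than 40.6% and 44.4% of the genes with reads. Without knockdown 1 its bound was 4.26-fold and without knockdown 2 it was 4.99-fold, so the depth sets how much lower it can be said to be.

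*Stmn3* (ENSMUSG00000027581.13), at chr2:180948247-180956293 on the reverse strand, had no read in any of the 4 libraries. The limits at 3 counts ran from 1.78 to 2.47 CPM. Any difference in *Stmn3* was not detectable at this depth. The related gene *Stmnd1*, named for a stathmin domain, had 1 read in scrambled 2 and none elsewhere.

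**Figure D1:**
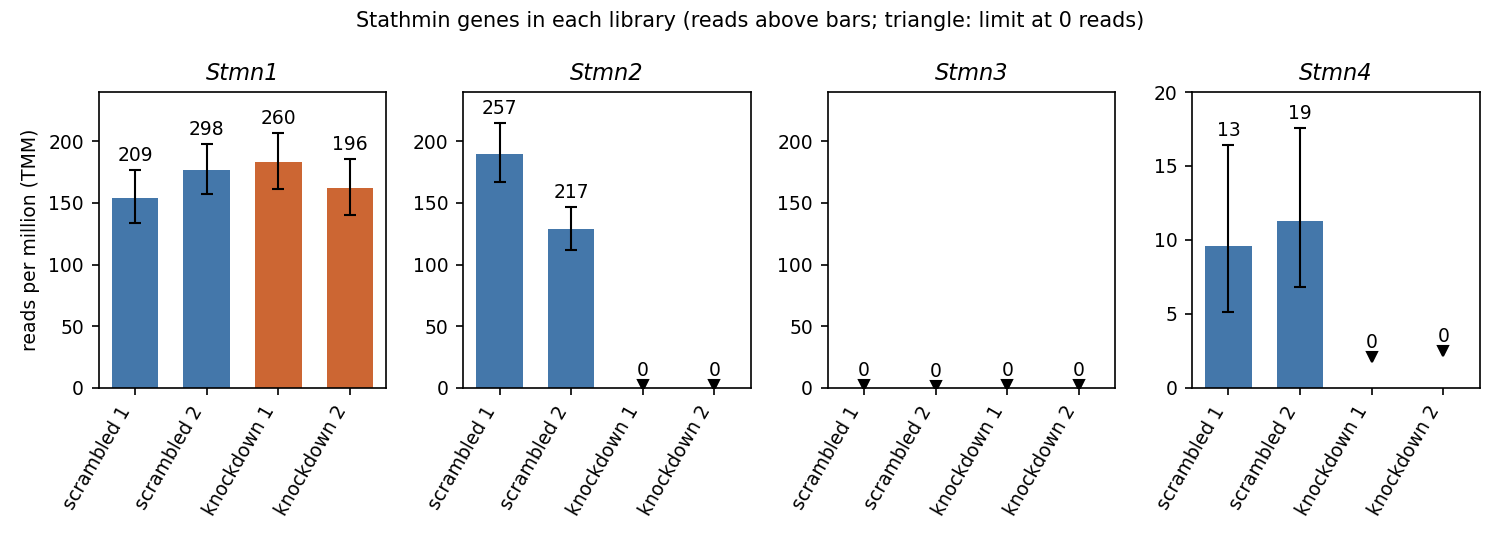
Level of each stathmin gene in the 4 libraries, in CPM with TMM library sizes, with the *Stmn4* axis ending at 20 and the others at 240. Bars are single libraries with 95% Poisson intervals, numbers are reads, and triangles mark the limit at 3 counts where no read was found: *Stmn1* was present in all 4 libraries, *Stmn2* and *Stmn4* in the scrambled libraries alone, and *Stmn3* in none.

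The family total was 479 reads in scrambled 1, 534 in scrambled 2, 260 in knockdown 1 and 196 in knockdown 2. This is 335 ± 26.1 CPM in scrambled and 172 ± 15 CPM in knockdown (SD, n = 2), and the groups did not overlap. The total was 48.6% lower in knockdown, a log2 ratio of -0.96, and the batches gave -0.95 and -0.97. *Stmn2* accounted for 53.7% of the family reads in scrambled 1 (exact Clopper-Pearson 95% interval 49.1 to 58.2) and for 40.6% in scrambled 2 (36.4 to 44.9). *Stmn1* accounted for 43.6% and 55.8%, so *Stmn2* had more reads than *Stmn1* in scrambled 1, with Poisson intervals of the reads that overlapped (227 to 290 and 182 to 239), and fewer in scrambled 2, with intervals that did not (189 to 248 and 265 to 334). *Stmn4* made up 2.71% (1.45 to 4.6) and 3.56% (2.16 to 5.5). In the knockdown libraries all family reads were *Stmn1*, and the summed 456 reads allow each other member a share of up to 0.658%.

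**Figure D2:**
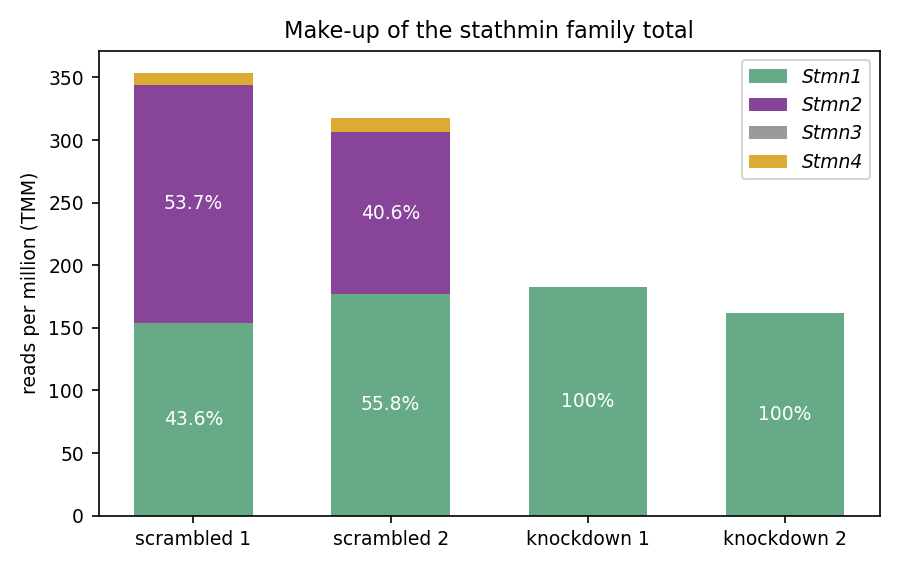
Make-up of the family total in each library, in CPM with TMM library sizes, with the shares of family reads of *Stmn1* and *Stmn2* written in the bars. The *Stmn1* part was similar in all 4 libraries, while the *Stmn2* and *Stmn4* parts were present in scrambled 1 and 2 and absent from the knockdown bars.

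Levels of different genes were compared per kilobase of the longest annotated transcript, which is 2840 bases for *Stmn1*, 3413 for *Stmn2* and 3787 for *Stmn4*. On this scale *Stmn2* stood at 55.6 CPM per kilobase in scrambled 1 and *Stmn1* at 54.4, a ratio of 1.02. In scrambled 2 *Stmn2* stood at 37.7 and *Stmn1* at 62.3 CPM per kilobase, a ratio of 0.606. In scrambled 1 the levels of *Stmn1* and *Stmn2* per kilobase did not differ beyond counting error, so no order of the 2 genes held in both libraries. *Stmn4* was well below both, at 2.54 and 2.98 CPM per kilobase, and *Stmn1* exceeded it 21.4-fold and 20.9-fold. Per kilobase of the canonical transcripts, a scale added after the values were seen, *Stmn1* exceeded *Stmn4* 11.8-fold and 11.5-fold, so the size of this gap depends on which transcript is taken. In direct RNA sequencing a read stands for about 1 RNA molecule whatever its length, and as plain reads the ratio of *Stmn2* to *Stmn1* was 1.23 in scrambled 1 and 0.728 in scrambled 2, and that of *Stmn1* to *Stmn4* was 16.1 and 15.7.

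Counting could affect *Stmn1* through a copy. *Gm11223*, a processed pseudogene on chromosome 4 annotated as transcribed, matched the *Stmn1* transcript at 449 of 450 bases (99.8%), so reads of the copies may be split or set aside and *Stmn1* is uncertain to that extent. *Gm11223* was listed with 26 and 21 scrambled reads and 9 and 7 knockdown reads. With both summed, the log2 ratio of *Stmn1* was -0.03 in place of 0.06. No close copy of the other 3 members was found among the transcripts. Exons of *Stmn1* share 13.9% of their bases with the antisense RNA *1700021N21Rik*, on which no read was listed. They share 1.81% with *Gm55612*, a miRNA gene on the same strand that also had no read. In each library 16% to 16.5% of all reads were set aside as ambiguous. A count of 0 on these 2 genes therefore does not show that no *Stmn1* read was set aside. Exons of *Stmn3* share 2.47% with the RNA gene *Gm75108*. No exon of *Stmn2* or *Stmn4* overlapped an exon of another annotated gene.

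The absence of *Stmn2* reads was set beside that of other genes. Of 9819 genes with at least 10 reads in the scrambled libraries together, 25 had no read in either knockdown library. Of 4684 genes with at least 100 such reads, *Stmn2*, with 474, was the only one. The genes without knockdown reads that followed it were the homeobox gene *Hoxb9* with 33 scrambled reads, *Stmn4* with 32, *Crct1* and the homeobox gene *Lbx1* with 25 each, and *Hhipl1* and *Hoxb7* with 20 each. *Stmn4* was thus second after *Hoxb9* in this order, by 1 read. Of 7906 genes with at least 30 scrambled reads, 3 had no knockdown read. In the opposite direction 2 genes had no scrambled read and at least 30 knockdown reads.

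Profiles over the 4 libraries were also compared by the Euclidean distance of centred log2 CPM with 1 read added. The tested gene nearest to *Stmn2* was *Il11*, an IL-6 family cytokine with 112, 98, 0 and 3 reads in the order scrambled 1, scrambled 2, knockdown 1 and knockdown 2, at a distance of 2.6. *Stmn4* and *Ptgis*, the prostacyclin synthase gene, followed at 3.9 each. Nearest to *Stmn4* were *Ptgis* at 0.42, *Mmp15* at 0.53 and *Cited1* at 0.8. Nearest to *Stmn1* were the actin-binding protein gene *Lasp1* at 0.021, the splicing factor gene *Rbfox2* at 0.025 and the pseudogene *Ap2m1-ps* at 0.029. These distances describe the 4 libraries and carry no test.

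The genes next to the members were examined, since their position was not used to choose the family. The 5 nearest protein-coding genes on each side of each member gave 40 neighbours, of which 21 were tested in the fit across all genes. Over all 8670 genes tested, edgeR's quasi-likelihood test with Benjamini-Hochberg adjustment called 516 (5.95%) at an adjusted p under 0.05, of which 218 (2.51%) were higher and 298 (3.44%) lower in knockdown. Of the 21 neighbours 2 fell and none rose, and both lie around *Stmn2*.

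All 10 neighbours of *Stmn2* had reads in the knockdown libraries. The nearest gene, *Hey1*, a Notch target 100 kb beyond *Stmn2*, had 4 and 22 scrambled reads and 2 and 1 knockdown reads and was too low to be tested. *Mrps28*, 238 kb beyond it, had 258 and 300 scrambled reads and 177 and 170 knockdown reads, and *Tpd52*, 364 kb beyond it, had 137 and 123 against 164 and 129. Neither passed the test. *Pkia*, which encodes an inhibitor of protein kinase A and lies 1064 kb before *Stmn2*, had 130 and 119 scrambled reads against 45 and 48 knockdown reads, and fell by 1.22 (log2, standard error 0.21, adjusted p = 0.00166 in edgeR). *Zfp704*, a zinc finger gene 865 kb beyond *Stmn2*, had 26 and 29 against 3 and 7 reads and fell by 2.23 (standard error 0.46, adjusted p = 0.00635 in edgeR). The call of *Zfp704* was lost without knockdown 1, at an adjusted p of 0.12. The genes between these 2 and *Stmn2* with 10 or more reads, *Il7*, *Zc2hc1a*, *Hey1*, *Mrps28*, *Tpd52* and *Zbtb10*, included none that was called, although *Il7* and *Hey1* were too low to test, and *Pex2* on the far side of *Pkia* was not called either. The 14 tested genes within 10 Mb of *Stmn2* had a median log2 fold change of 0.09, beside 0.10 for chromosome 3 and 0.00 for all genes tested.

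Around *Stmn4*, *Trim35*, *Ptk2b*, *Dpysl2*, *Bnip3l* and *Ppp2r2a* were tested and none was called. *Ptk2b*, a tyrosine kinase gene 62.8 kb before *Stmn4*, had 14 and 32 scrambled reads against 6 and 8 knockdown reads, with a log2 fold change of -1.48 ± 0.46 (SE) and an adjusted p of 0.0597 in edgeR. *Trim35*, the nearest gene at 32.9 kb, had 211 and 284 against 165 and 140 reads, or -0.49 on the log2 scale. Without scrambled 1, *Ptk2b* and *Hey1* were called beside *Pkia* and *Zfp704*. The 281 tested genes of chromosome 14 other than *Stmn4* had a median log2 fold change of -0.36, where the medians of the autosomes ran from -0.37 to 0.30, and the 79 within 10 Mb of *Stmn4* had a median of -0.29. The part of this shift in the *Stmn4* counts was not tested. For chromosome 4, with *Stmn1*, the median was -0.07, and for chromosome 2, with *Stmn3*, it was -0.05. The tested neighbours of *Stmn1* were *Pafah2*, *Pdik1l*, *Aunip*, *Mtfr1l*, *Selenon* and *Man1c1* and those of *Stmn3* were *Gmeb2*, *Rtel1* and *Arfrp1*, and none of these 9 was called. *Helz2* and *Zgpat*, also next to *Stmn3*, had 19 and 13 reads in all, so reads were found on genes to both sides of *Stmn3*.

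**Figure D3:**
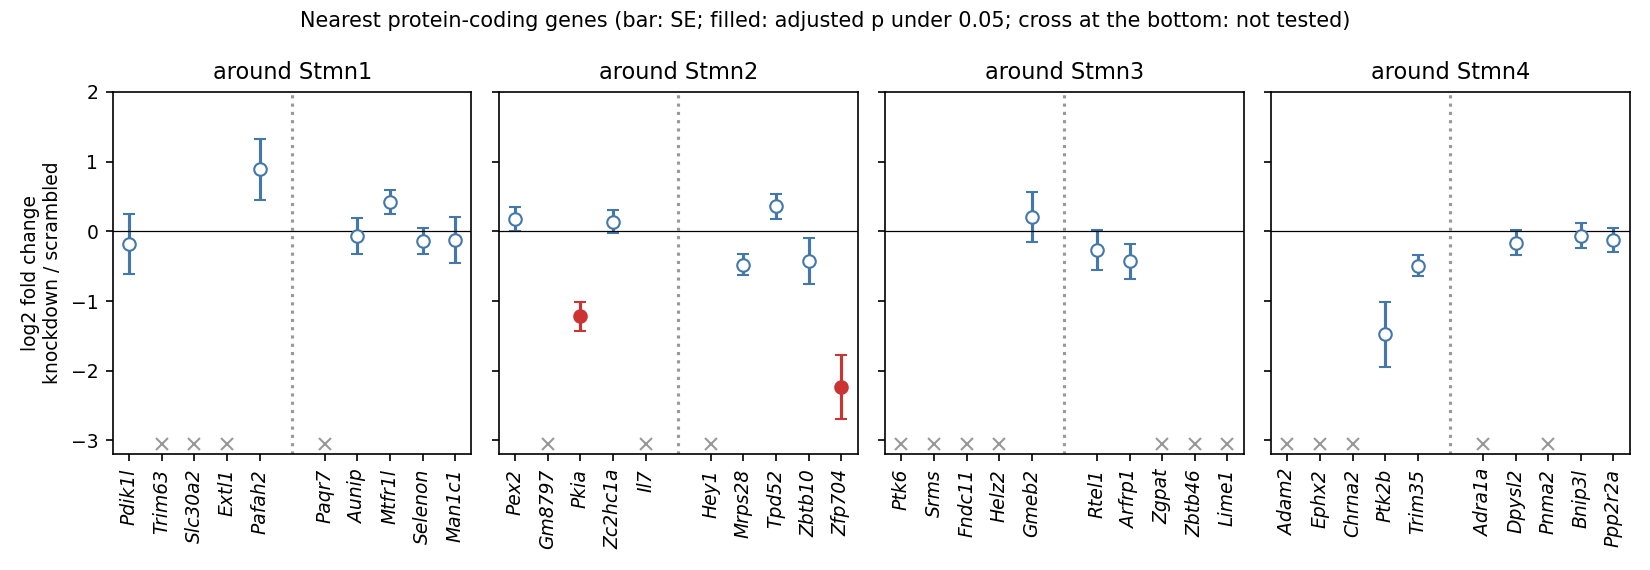
Log2 fold change, knockdown over scrambled, of the 5 nearest protein-coding genes on each side of each member in their order on the chromosome, with the member at the dotted line. Bars are standard errors, filled points have an adjusted p under 0.05 in edgeR, and crosses at the bottom are genes too low to test: the 2 filled points are *Pkia* and *Zfp704*, both around *Stmn2*.

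Sequence features of the members were read from GRCm39. REST silences neuronal genes in other tissues by binding RE1 elements, and *Stmn2* is among the genes in which RE1 was first described. The half-sites AGCACC and GGACAG, 2 bases apart, were searched on both strands within 5000 bases of the canonical transcript start of each protein-coding gene, a search chosen after the counts were seen. Among the members only *Stmn2* held the pair, 1062 bases before its transcript start at chr3:8573290-8573310 on the forward strand, shown with the half-sites in capitals.
*Stmn2* RE1: ttcAGCACCacGGACAGcgct
The pair was found in 179 of 21757 such windows (0.823%). Apart from *Stmn2*, 34 tested genes held it, of which 2 fell in knockdown, *Tubb3* and the collagen gene *Col5a3*, and none rose, beside 3.44% and 2.51% of all genes. *Col5a3* had 55 and 66 scrambled reads and 13 and 16 knockdown reads. A match is a description of the sequence, not of binding in these cells.

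hnRNP L is known to bind CA repeats in RNA. The canonical transcripts of the 4 members held neither CACACACA nor its reverse complement TGTGTGTG, which were found in the canonical transcripts of 20.1% and 29.2% of 8224 tested protein-coding genes. In whole genes, introns included, matches were counted without overlap, so a long repeat counts more than once. *Stmn2* held 28 matches of CACACACA in the sense of the gene, 5.33 per 10 kb. This was more than in 89.9% of these genes, whose median was 1.96. *Stmn4* held 2, or 1.15 per 10 kb, and *Stmn1* and *Stmn3* held none. TGTGTGTG was matched 20 times in *Stmn2*, 8 times in *Stmn4*, 1 time in *Stmn3* and not in *Stmn1*. Of the tested genes, 82.1% held CACACACA and 88.6% held TGTGTGTG in the whole gene. The counts are per gene, so splicing of the members was not measured here.

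The 3 shRNA targets were compared with the transcripts of the members. Each target, 21 bases long, matched *Hnrnpl* in full, whereas the longest run shared with *Stmn2* was 7, 7 and 8 bases for targets 1, 2 and 3. Target 3, at chr7:28518269-28518289 in the coding part of exon 8 of *Hnrnpl* on the forward strand, is shown with the run shared with *Stmn2* in capitals.
*Hnrnpl* target 3: atgGTCTATGGcttggatcaa
A run at least as long was shared with this target by 44.9% of the tested protein-coding genes. The run shared with target 1 lay at its bases 14 to 20, in the 3' UTR of *Stmn2*. A run as long was shared with target 1 by 85.1% of these genes. Only the length of runs was compared, and an effect of the shRNAs on *Stmn2* through short matches was not tested. For *Stmn4* the longest runs were 7, 5 and 6 bases, and for *Stmn1* they were 7, 6 and 6.

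The lists of genes that act on or with stathmins were then read from the same fit across all genes. Of 20 kinases and phosphatases of stathmins, 16 were tested and none was called by edgeR or by DESeq2, with 7 at an unadjusted p under 0.05, a level that 1894 of all genes tested (21.8%) passed, and a median log2 fold change of -0.03. *Cdk1*, the mitotic kinase that phosphorylates *Stmn1* protein, had the most reads, with 530 and 561 in scrambled against 493 and 438 in knockdown. Of 25 genes of microtubule dynamics 23 were tested and none was called by either tool, with 5 at an unadjusted p under 0.05 (21.8% over all genes) and a median of 0.00. *Mapre1*, the plus-end binding protein EB1, had 352 and 492 scrambled reads and 327 and 323 knockdown reads. Of 7 genes for palmitoylation and turnover of the membrane stathmins 4 were tested, and none was called by either tool or had an unadjusted p under 0.05. Their median was -0.04, and the palmitoyltransferase gene *Zdhhc3* led with 97 and 175 against 114 and 91 reads. With 5.95% of all genes called, the absence of calls among the 43 genes tested in these 3 lists describes these genes only.

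Of 12 transcription and RNA regulators of stathmin genes, 10 were tested, 1 fell and none rose, beside 3.44% of all genes lower and 2.51% higher, with a median log2 fold change of 0.07. *Rcor2*, a REST corepressor, had 26 and 67 scrambled reads and 13 and 17 knockdown reads and fell by 1.40 (standard error 0.38, adjusted p = 0.0332 in edgeR). This call was lost without scrambled 2 (adjusted p = 0.445), without knockdown 1 (0.232) and in DESeq2 (0.149). *Rest* itself had 42 and 49 scrambled reads and 41 and 32 knockdown reads and was not called (log2 fold change -0.12, standard error 0.25). *Tardbp*, whose protein TDP-43 keeps a cryptic exon out of human *STMN2* RNA, had 332 and 338 against 315 and 243 reads and was not called (log2 fold change -0.08, standard error 0.15).

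Since 3 of the members are known as neuronal genes, 23 neuronal markers were set beside them. No read was found on 12 of these markers, among them the defining ones *Map2*, *Rbfox3*, *Snap25*, *Syp*, *Dcx*, *Elavl3* and *Elavl4*, in any library. *Stmn2* was therefore read 474 times in scrambled in the absence of reads on these genes. Of the 5 neuronal markers tested 2 fell and none rose, beside the same 3.44% and 2.51% of all genes, and the median log2 fold change was -1.0. *Tubb3*, the neuronal beta-tubulin gene, had 150 and 149 scrambled reads and 20 and 18 knockdown reads, and fell by 2.77 (standard error 0.23, adjusted p = 4.82e-07 in edgeR). *Nefl*, the light neurofilament gene, had 78 and 152 against 54 and 42 reads and fell by 1.04 (standard error 0.23, adjusted p = 0.00895 in edgeR), a call lost without scrambled 2 (0.169) and without knockdown 1 (0.0663). Summed over the 23 markers, the level was 230 and 262 CPM in scrambled and 90 and 94.8 CPM in knockdown, and *Tubb3* and *Nefl* held most of these reads. The part of these genes in the *Stmn2* and *Stmn4* counts was not tested.

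Of 12 markers of the myoblast state, 6 were tested, of which 4 fell and none rose, beside 3.44% of all genes lower and 2.51% higher. Their median log2 fold change was -1.02, beside 0.00 for all genes. *Cdh15* (M-cadherin) had 113 and 152 scrambled reads and 25 and 14 knockdown reads and fell by 2.55 (standard error 0.24, adjusted p = 2.03e-06 in edgeR). *Chrna1*, an acetylcholine receptor subunit, fell by 1.53, and the adhesion gene *Ncam1* fell by 1.47. *Des* (desmin) fell by 0.56 (adjusted p = 0.0308 in edgeR), a call lost with the replicate block (0.0526), without scrambled 2 (0.297), without knockdown 1 (0.097) and without knockdown 2 (0.117). The other tested markers were not called: *Myf5* had 157 and 190 against 158 and 113 reads (log2 fold change -0.16), and *Megf10* had 80 and 127 against 132 and 124 (0.52). The summed level of the 12 markers was 774 and 907 CPM in scrambled and 539 and 492 CPM in knockdown, and its part in the stathmin counts was not tested. The single marker of other cell types that was tested, *Pdgfrb*, had 69 and 128 against 89 and 74 reads, and the summed level of these 17 markers was 60.6 and 86.1 CPM in scrambled and 71.7 and 70.1 CPM in knockdown.

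*Stmn1* is known to follow proliferation, and 20 proliferation genes were read beside it. Of these 19 were tested, none was called by edgeR or DESeq2, 6 had an unadjusted p under 0.05 (21.8% over all genes), and the median log2 fold change was -0.04. *Rrm2*, a subunit of ribonucleotide reductase, had the most reads, with 737 and 879 in scrambled against 893 and 915 in knockdown. The summed level of these genes was 4280 and 4134 CPM in scrambled and 4019 and 4375 CPM in knockdown. In that sum the groups overlapped. Single genes did not all overlap: *Ube2c* had 602 and 611 CPM in scrambled against 489 and 462 in knockdown. *Mcm2* had 101 and 108 CPM in scrambled against 146 and 150 in knockdown. Of the 19 tested genes, 14 had a log2 fold change below 0 and 5 above.

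**Figure D4:**
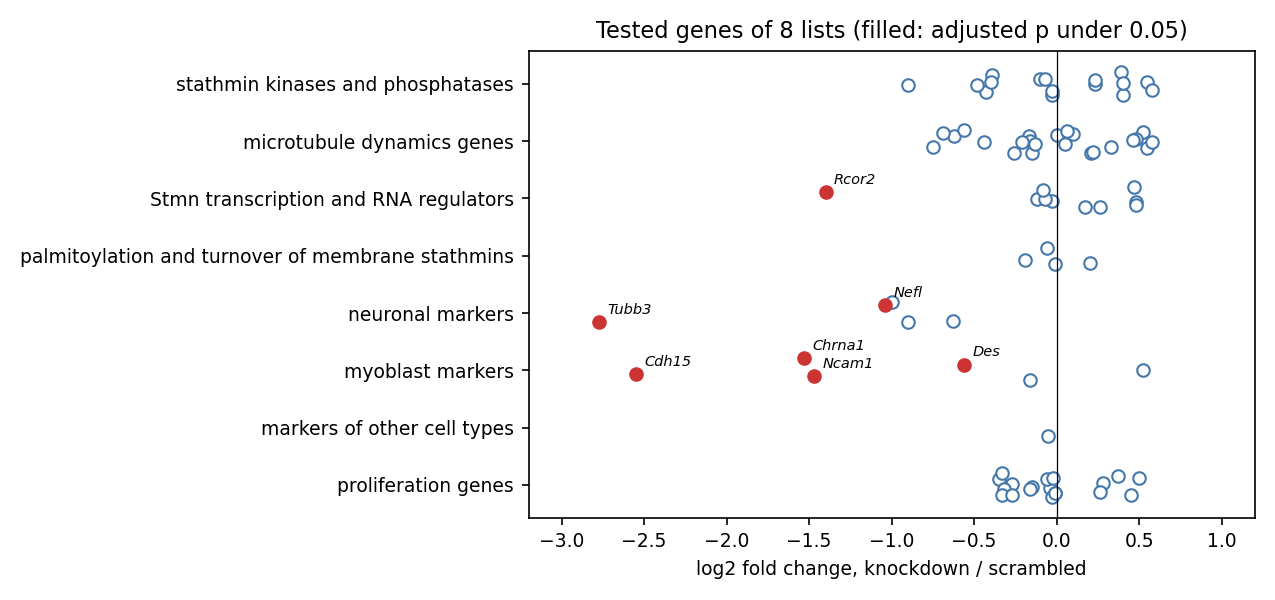
Log2 fold change, knockdown over scrambled, of the tested genes of the 8 lists, 1 point per gene, with filled points at an adjusted p under 0.05 in edgeR (vertical spread within a list has no meaning). The 7 filled points, all below 0, are *Rcor2*, *Tubb3*, *Nefl*, *Cdh15*, *Chrna1*, *Ncam1* and *Des*, and the kinases, microtubule genes, palmitoylation genes and proliferation genes have none.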

How the data were processed

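Nanopore direct RNA sequencing was run on RNA of 2 scrambled and 2 *Hnrnpl* knockdown C2C12 cultures. The authors mapped the reads to GRCm39 with minimap2 (2.17) and deposited whole counts per gene from HTSeq (0.9.1, versions from the submitters' processing notes). The annotation release and the strand setting of the counting are not given in the sources used here. Of 56748 gene IDs, 56017 were found in GENCODE vM39, which gave symbols and positions. Lines for unassigned reads were left out of library sizes, which kept 56.5% to 57.8% of the reads.

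CPM used TMM library sizes of edgeR 4.0.16 (R 4.3.3). Knockdown was compared with scrambled over 8670 genes with filterByExpr and the quasi-likelihood test, with p-values adjusted by the Benjamini-Hochberg method, and tested on simulated data. DESeq2 1.42.0 (Wald test, local fit), other scaling factors and filters, the robust test and each library left out were alternatives. Intervals are 95% Poisson or Clopper-Pearson, and where no read was found the limit is 3 counts. Copies were sought with minimap2 2.31-r1302. Protein sequences were not used, so coding sequences were compared. P-values measure the spread between passages.

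The replicate numbers pair the libraries through the batch in the labels. Deviations from the group means had a correlation of -0.0131 over 7705 genes, and the replicate block was an alternative.

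The members and lists were chosen with earlier results of these data known. Genes named are the members, the called genes of each list (at most 8) and the list gene with the most reads, and neighbours with at least 10 reads. Also named are the 5 genes other than *Stmn2* without knockdown reads that had the most scrambled reads, with ties kept. The 3 genes with the profile nearest to each member complete the rule. Genes named outside this rule, among them *Gm11223*, *Stmnd1*, *Col5a3*, *Rest* and markers without reads, were chosen after their values were seen.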

Additional observations from a re-analysis of the deposited data

How the results depend on the processing

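The *Stmn1* and family log2 ratios kept within the spread of the libraries under RLE, upper quartile and plain library sizes and without mitochondrially encoded genes. With the replicate block, that is within batches 1 and 2, the log2 ratio was 0.24 and -0.13 for *Stmn1*, and the bounds were 90-fold and 52.1-fold for *Stmn2* and 4.55-fold and 4.56-fold for *Stmn4*, since 1 library then stands behind the 0. With single libraries left out, the log2 ratio ran from -0.04 to 0.16 for *Stmn1* and from -1.05 to -0.87 for the family, the bounds from 63 to 167-fold for *Stmn2* and from 4.26 to 9.9-fold for *Stmn4*, and the *Stmn2* share of scrambled reads from 40.6% to 53.7%. Calls across all genes were 516, 504 with the replicate block, 237 in DESeq2, and 197 (without knockdown 1) to 452 with single libraries left out. Calls in the lists were 7, 6 with the replicate block and 4 (without knockdown 1) to 8. Calls among neighbours were 2, also with the block, 4 without a filter, 1 with at least 10 counts in every library, and 1 (without knockdown 1) to 4 (without scrambled 1). The cause was not tested. Of the 9 called genes of the lists and neighbours, 5 were called in every setting and none reversed, and the replicate block ended, among these 9, the call of *Des*. Other called genes named in the text are not covered by this count. Depth limits what can be said of *Stmn3* and *Stmn4*.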
